A study of Drosophila melanogaster with 12 samples.

Results

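Genes that mark or specify Drosophila blood cells, or carry Pvr signals in them, were followed in S2 cells after RNA interference. They are the transcription factor genes srp, ush, lz and gcm, the blood cell genes He, Hml and Nplp2, the receptor gene Pvr, and its ligand genes Pvf2 and Pvf3. Members were found by symbol among the 14542 gene rows of the SIN3_KD table and the 14540 rows of each other table, and all 10 had a row in every table. The authors tested 7 of the 10. The rows of lz, gcm and Pvf3 were not tested in any table.

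The study measured RNA in S2 cells, a cultured line from late Drosophila embryos with macrophage-like properties, by RNA-seq after 4 days with double-stranded RNA (dsRNA). The samples labelled SIN3_KD received dsRNA against Sin3A, those labelled SAM-S_KD against Sam-S, those labelled SIN3_KD+SAM-S_KD against both, and those labelled GFP_RNAi against GFP as the control. All were labelled wild type. Each group had 3 samples, which the authors combined into 1 FPKM value per gene, fragments counted relative to transcript length and to the size of the library. No value therefore has a spread between replicates, and differences are read from the p and q of the authors' deposited Cuffdiff tables, where a gene is called at q under 0.05. A value in parentheses after a pair of levels is the log2 fold change of knockdown over GFP_RNAi, followed where given by its approximate 95% interval.

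Hemocytes, the insect blood cells, arise under the GATA factor Serpent (srp). The FOG-family protein U-shaped (ush) binds Serpent and restrains the crystal cell fate, the RUNX factor Lozenge (lz) drives that fate, and Glial cells missing (gcm) acts in glia and in plasmatocytes, the macrophage-like hemocytes. Pvr is a receptor tyrosine kinase related to the vertebrate PDGF and VEGF receptors. Its ligands Pvf1, Pvf2 and Pvf3 act in hemocyte survival, migration and proliferation.

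The labels were checked on the targeted genes. Sam-S stood at 62.0 FPKM in the samples labelled SAM-S_KD and 242 FPKM in GFP_RNAi, and at 91.2 FPKM in those labelled SIN3_KD+SAM-S_KD and 243 FPKM in GFP_RNAi, called lower in both. In the samples labelled SIN3_KD, Sam-S stood at 484 FPKM, against 240 FPKM in GFP_RNAi. It was called higher there, and the authors' deposited table gave q = 0.00172. Sin3A stood at 61.7 FPKM in the samples labelled SIN3_KD and 67.9 FPKM in GFP_RNAi, and the authors' deposited table gave q = 0.931. It stood at 64.7 FPKM in the samples labelled SIN3_KD+SAM-S_KD and 68.5 FPKM in GFP_RNAi, and the authors' deposited table gave q = 0.93. In SAM-S_KD it stood at 71.2 FPKM, against 68.1 FPKM in GFP_RNAi. The Sin3A transcript does not bear out these labels, and every direction given for these groups rests on the label: SIN3_KD and SIN3_KD+SAM-S_KD stand for the samples so labelled. The tables were scaled separately, and the GFP_RNAi values of a member differed between them by at most 1.79%.

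The hemocyte character of the culture was visible in every group. Of 11 hemocyte markers, 10 stood at 1 FPKM or more in each group, and the exception was Hml. None of the 4 crystal cell markers (lz, PPO1, PPO2 and peb) reached 1 FPKM in any group, with a summed level of 0.215 to 0.236 FPKM in the knockdown groups and 0.259 to 0.261 FPKM in GFP_RNAi. None of 5 fat body markers reached 1 FPKM. Of the 4 glial markers, moody and Gli did while repo and gcm did not, and of 4 matched neuron and 5 muscle markers only elav and Mef2 did. Of 5 germline markers, piwi and aub did. Of the lamellocyte markers, atilla did not reach 1 FPKM. ItgaPS4 did, at 1.39 to 2.25 FPKM in the knockdown groups and 1.96 to 1.98 FPKM in GFP_RNAi. So did the PPO3 row, which also holds l(2)k09913 and cannot be divided between the genes. That row made up most of the summed level of the 3 lamellocyte markers. The sum was 81.8 to 91.7 FPKM in the knockdown groups and 92.0 to 93.0 FPKM in GFP_RNAi.

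**Figure D1:**
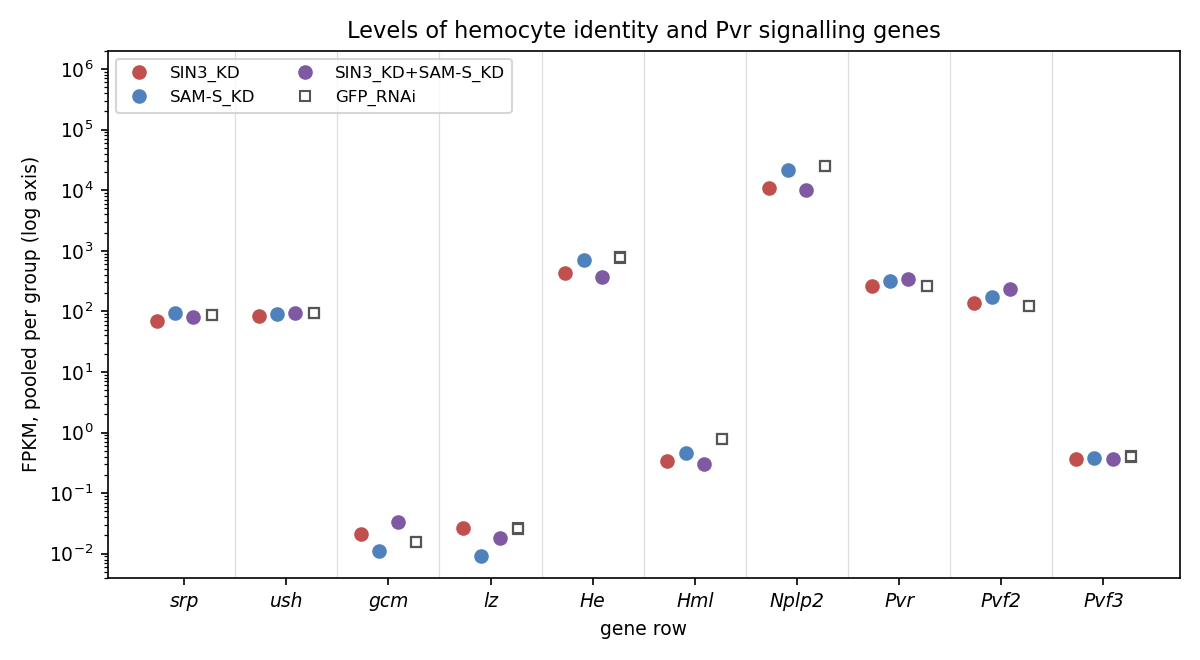
FPKM of the 10 gene rows on a log axis, 1 pooled value per group; circles are the knockdown groups and open squares the GFP_RNAi values of the 3 tables, which nearly coincide. He, Hml and Nplp2 lie lower in the groups labelled SIN3_KD and SIN3_KD+SAM-S_KD, Pvf2 lies highest in SIN3_KD+SAM-S_KD, and gcm and lz lie under 0.04 FPKM throughout.

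The ligand gene Pvf2 (chromosome 2L, 7069578 to 7084634, dm3) rose in the samples labelled SIN3_KD+SAM-S_KD. It stood at 237 FPKM there, against 124 FPKM in GFP_RNAi, 1.91-fold higher. The log2 fold change was 0.93, with an approximate 95% interval of 0.48 to 1.39, and the authors' deposited table gave q = 0.00157. No other member was called higher in any table. Over all tested genes, 3.48% were called higher in this comparison, against 3.34% in SIN3_KD and 0.088% in SAM-S_KD.

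Neither single knockdown gave a call for Pvf2. It stood at 138 FPKM in the samples labelled SIN3_KD and 123 FPKM in GFP_RNAi, a log2 fold change of 0.17 (approximate 95% interval -0.19 to 0.52). In the samples labelled SAM-S_KD it stood at 170 FPKM, against 123 FPKM in GFP_RNAi, a log2 fold change of 0.46 (0.10 to 0.82). The authors' deposited table gave p = 0.0118 and q = 0.9999 there. The 4 groups thus ran upward in the order GFP_RNAi, SIN3_KD, SAM-S_KD, SIN3_KD+SAM-S_KD. The sum of the log2 fold changes of the single knockdowns was 0.63, which was not tested against the 0.93 of the combined knockdown.

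The receptor gene Pvr (chromosome 2L, 8220980 to 8239878) was not called in any table. It stood at 346 FPKM in the samples labelled SIN3_KD+SAM-S_KD and 266 FPKM in GFP_RNAi, a log2 fold change of 0.38 (approximate 95% interval -0.02 to 0.78), and the authors' deposited table gave p = 0.0653 and q = 0.286. In the samples labelled SAM-S_KD it stood at 319 FPKM, against 265 FPKM in GFP_RNAi (0.27, from -0.12 to 0.66). In those labelled SIN3_KD it stood at 260 FPKM and in GFP_RNAi at 264 FPKM (-0.02, from -0.38 to 0.34). Among the knockdown groups alone, receptor and ligand had the same order of levels, with the larger log2 fold changes in Pvf2. The order in Pvr rests on levels without a call, and SIN3_KD lay below GFP_RNAi for Pvr but above it for Pvf2. The FPKM of Pvr was 1.46 times that of Pvf2 in the samples labelled SIN3_KD+SAM-S_KD and 2.15 times in GFP_RNAi.

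The other ligand genes were close to silent. Pvf3 (chromosome 2L, 7099692 to 7156701) is the neighbour of Pvf2, with 15057 bases between the loci, and both lie on the minus strand in the BDGP6 annotation. It stood at 0.363 FPKM in the samples labelled SIN3_KD, 0.375 FPKM in SAM-S_KD, 0.366 FPKM in SIN3_KD+SAM-S_KD and 0.399 to 0.403 FPKM in GFP_RNAi. The FPKM of Pvf2 was 647 times that of Pvf3 in SIN3_KD+SAM-S_KD and 307 times in GFP_RNAi. Pvf1, the third ligand gene, stood at 0.134, 0.0817 and 0.0524 FPKM in SIN3_KD, SAM-S_KD and SIN3_KD+SAM-S_KD, and at 0.0246 to 0.0248 FPKM in GFP_RNAi, untested.

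The list of Pvr pathway genes, with those that relay the signal inside the cell, held 28 genes, from the adaptors drk and dos and the GTPase genes Ras85D, Rac1 and Rac2 to the kinase genes phl, Dsor1 and rl, and 26 of them were tested in each table. Among the 26, Pvf2 in the samples labelled SIN3_KD+SAM-S_KD was the only call, and the list gave 0 calls in SIN3_KD and in SAM-S_KD. Over all tested genes, 7.68% were called in SIN3_KD, 0.163% in SAM-S_KD and 9.62% in SIN3_KD+SAM-S_KD. Cuffdiff gave 6, 1 and 6 of the 26 an unadjusted p under 0.05 in the tables of SIN3_KD, SAM-S_KD and SIN3_KD+SAM-S_KD. Among all tested genes, 1466 of 8123, 223 of 7957 and 1672 of 8158 had one. For the list, an adjustment recomputed over each table gave the same numbers of calls as the deposited q. The median log2 fold change was -0.03, 0.01 and 0.05 in that order, against -0.01, -0.02 and -0.01 over all tested genes. Src64B, a Src-family kinase gene, had the lowest value of the list in SIN3_KD, at 2.00 FPKM and 3.66 FPKM in GFP_RNAi (-0.87), without a call.

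**Figure D2:**
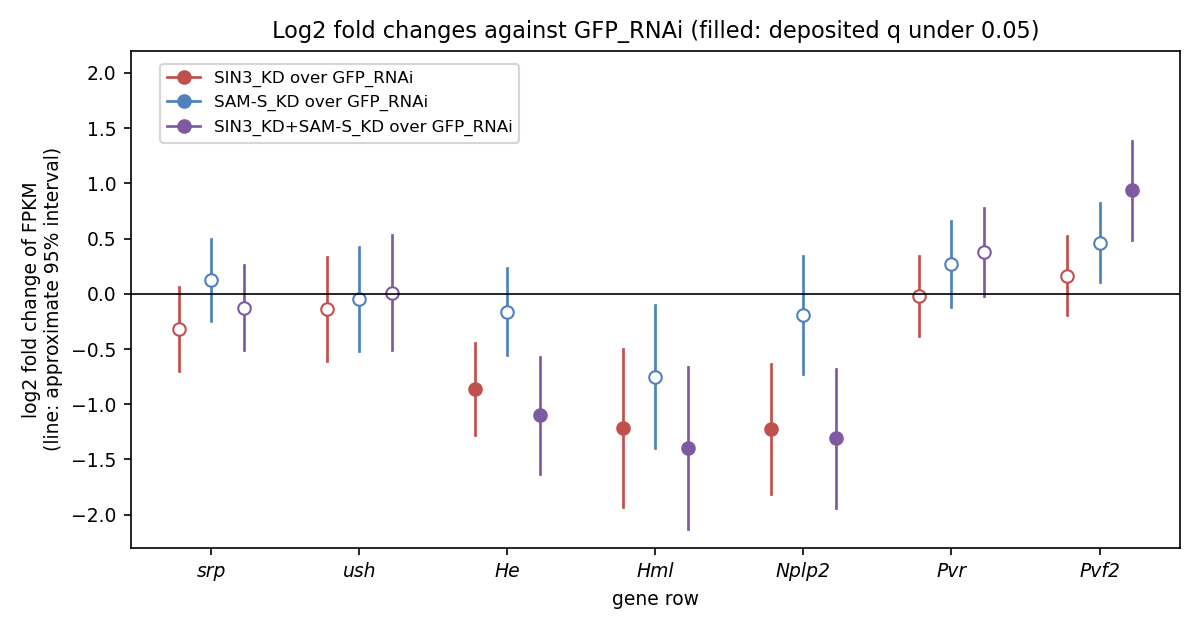
Log2 fold changes of FPKM against GFP_RNAi for the 7 tested members, with approximate 95% intervals implied by the deposited p; filled points have q under 0.05. He, Hml and Nplp2 are filled below 0 in SIN3_KD and SIN3_KD+SAM-S_KD, Pvf2 is filled above 0 in SIN3_KD+SAM-S_KD, and no SAM-S_KD point is filled.

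Of the transcription factor genes among the members, only srp and ush were tested, and neither was called in any table. The srp row (chromosome 3R, 11811874 to 11829803) had 68.6 FPKM in the samples labelled SIN3_KD and 85.7 FPKM in GFP_RNAi, a log2 fold change of -0.32 (approximate 95% interval -0.70 to 0.06), and the authors' deposited table gave q = 0.437. It stood at 94.2 FPKM in SAM-S_KD, against 86.2 FPKM in GFP_RNAi (0.13, from -0.24 to 0.50). In SIN3_KD+SAM-S_KD it stood at 79.5 FPKM, against 86.7 FPKM in GFP_RNAi (-0.13, from -0.51 to 0.26). In the tables of SAM-S_KD and SIN3_KD+SAM-S_KD the row is merged with the non-coding gene CR44133, which overlaps srp on the same strand in the BDGP6 annotation, so the reads of the 2 genes cannot be told apart there.

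The ush row (chromosome 2L, 458876 to 540560) also holds MED15, a Mediator subunit gene next to ush on the same strand, so its level belongs to both. Separate rows of cbt and CG4297 share this locus, with cbt at 71.7 to 93.4 FPKM in the knockdown groups. The ush row stood at 84.0 FPKM in SIN3_KD and 92.3 FPKM in GFP_RNAi (-0.14, from -0.61 to 0.34). In SAM-S_KD it stood at 89.8 FPKM, against 92.6 FPKM in GFP_RNAi (-0.04, from -0.51 to 0.43), and in SIN3_KD+SAM-S_KD at 93.8 FPKM, against 93.2 FPKM in GFP_RNAi (0.01, from -0.51 to 0.53). The levels thus spanned 84.0 to 93.8 FPKM over all groups, and each interval included 0.

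Both fate genes that act after srp were near 0. The lz row (chromosome X, 9178682 to 9197669) stood at 0.0266 FPKM in SIN3_KD, 0.00931 FPKM in SAM-S_KD, 0.0185 FPKM in SIN3_KD+SAM-S_KD and 0.0259 to 0.0261 FPKM in GFP_RNAi. The gcm row (chromosome 2L, 9578555 to 9581745), merged with the overlapping gene CG31709, stood at 0.0212, 0.0109 and 0.0334 FPKM in SIN3_KD, SAM-S_KD and SIN3_KD+SAM-S_KD, and at 0.0156 to 0.0158 FPKM in GFP_RNAi. No direction is read from either row, since the authors did not test them and the depth is unknown.

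The wider list of 24 lineage factors had 14 tested genes, and 4 of them fell in the samples labelled SIN3_KD while none rose; 4.35% of all tested genes were called lower in that table. The GATA factor gene pnr stood at 97.7 FPKM in SIN3_KD and 167 FPKM in GFP_RNAi (-0.78), and jumu, a forkhead factor gene, at 24.9 FPKM in SIN3_KD and 40.7 FPKM in GFP_RNAi (-0.71). The Notch receptor gene N (2.97 FPKM in SIN3_KD and 7.27 FPKM in GFP_RNAi) and its ligand gene Ser (2.05 FPKM and 5.12 FPKM) had log2 fold changes of -1.29 and -1.32. These are 2 DNA-binding factors and 2 proteins of Notch signalling, the pathway that induces lz in crystal cell precursors. Su(H), another Notch pathway gene of the list, was not called in any table (-0.14 in SIN3_KD and -0.001 in SIN3_KD+SAM-S_KD). In the samples labelled SIN3_KD+SAM-S_KD, 3 fell, jumu (-0.91), N (-1.12) and Ser (-1.07), beside 6.14% of tested genes called lower. pnr, at 126 FPKM there and 169 FPKM in GFP_RNAi (-0.42), was not called, and the authors' deposited table gave q = 0.116.

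For SAM-S_KD, 0 of the 14 lineage factors were called, and Cuffdiff gave 0 of them an unadjusted p under 0.05. Over all 7957 tested genes of that table, 0.163% were called and 223 had an unadjusted p under 0.05. The list medians were -0.25 in SIN3_KD, -0.05 in SAM-S_KD and -0.20 in SIN3_KD+SAM-S_KD. Of the GATA family, pnr had the highest FPKM in GFP_RNAi (167), followed by srp (85.7), GATAd (29.6) and GATAe (4.60), and grn stood at 0.0148 FPKM. Of the RUNX family, lz and RunxA were each below 0.03 FPKM in every group and RunxB was listed at 0 in GFP_RNAi, whereas Bgb, a RUNX partner, stood at 25.6 FPKM in SIN3_KD and 26.1 FPKM in GFP_RNAi.

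The hemocyte genes He, Hml and Nplp2 all fell in the samples labelled SIN3_KD and in those labelled SIN3_KD+SAM-S_KD, and none was called in SAM-S_KD. In bulk RNA, fewer cells of a type and less RNA per cell cannot be told apart. Over the 7 tested members this made 3 lower, 0 higher and 4 not called in SIN3_KD, where 7.68% of all tested genes were called, and the median log2 fold change was -0.32, against -0.01 over all tested genes. In SIN3_KD+SAM-S_KD it made 3 lower, 1 higher and 3 not called, where 9.62% of all tested genes were called, with a median of -0.13 against -0.01. In SAM-S_KD there were 0 calls, with a median of -0.04 against -0.02, and 0.163% of all tested genes were called (0.0754% lower). Cuffdiff gave 2 members, Hml and Pvf2, an unadjusted p under 0.05 there, as it did 223 of all 7957 tested genes. Recomputing the adjustment also gave 0 calls among the members there.

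Nplp2 (chromosome 3L, 13349634 to 13350323), which encodes a small secreted precursor protein, had the highest FPKM of all rows in GFP_RNAi. It stood at 10668.5 FPKM in SIN3_KD and 24885.7 FPKM in GFP_RNAi, 2.33-fold lower, with a log2 fold change of -1.22 (approximate 95% interval -1.81 to -0.63), and the authors' deposited table gave q = 0.00172. It stood at 10156.4 FPKM in SIN3_KD+SAM-S_KD and 25184.7 FPKM in GFP_RNAi, 2.48-fold lower (-1.31, from -1.94 to -0.68), and the authors' deposited table gave q = 0.00157. In SAM-S_KD the level was 21859 FPKM, against 25039.1 FPKM in GFP_RNAi (-0.20, from -0.73 to 0.34). Its rank among all rows was 3 in SIN3_KD, 1 in SAM-S_KD and 2 in SIN3_KD+SAM-S_KD. This 1 row made up 1.42% of the summed FPKM of the SIN3_KD group and 3.11% of that of GFP_RNAi, and 1.35% in SIN3_KD+SAM-S_KD against 3.12% in GFP_RNAi.

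He, which encodes the surface glycoprotein Hemese of hemocytes, has a row whose locus (chromosome 2L, 13970529 to 13972947) is also that of nimB5. It stood at 425 FPKM in SIN3_KD and 774 FPKM in GFP_RNAi, 1.82-fold lower (-0.86, from -1.28 to -0.45), and the authors' deposited table gave q = 0.00172. In SIN3_KD+SAM-S_KD it stood at 367 FPKM, against 788 FPKM in GFP_RNAi, 2.14-fold lower (-1.10, from -1.63 to -0.57), and the authors' deposited table gave q = 0.00157. The SAM-S_KD level of 700 FPKM, against 783 FPKM in GFP_RNAi (-0.16, from -0.56 to 0.23), was not called.

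Hml (chromosome 3L, 13839154 to 13853101) encodes the clotting protein Hemolectin, a standard plasmatocyte marker, yet its level was below 1 FPKM in every group. It stood at 0.336 FPKM in SIN3_KD and 0.779 FPKM in GFP_RNAi (-1.21, from -1.93 to -0.50), and the authors' deposited table gave q = 0.0168. In SIN3_KD+SAM-S_KD it stood at 0.299 FPKM, against 0.787 FPKM in GFP_RNAi (-1.40, from -2.13 to -0.66), and the authors' deposited table gave q = 0.00507. In SAM-S_KD it stood at 0.465 FPKM, against 0.783 FPKM in GFP_RNAi (-0.75, from -1.39 to -0.11), and the authors' deposited table gave p = 0.0225 but q = 0.9999. The knockdown groups were thus all lower than GFP_RNAi. With 1 added to each FPKM the log2 fold changes shrink to -0.41, -0.46 and -0.28 in SIN3_KD, SIN3_KD+SAM-S_KD and SAM-S_KD.

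**Figure D3:**
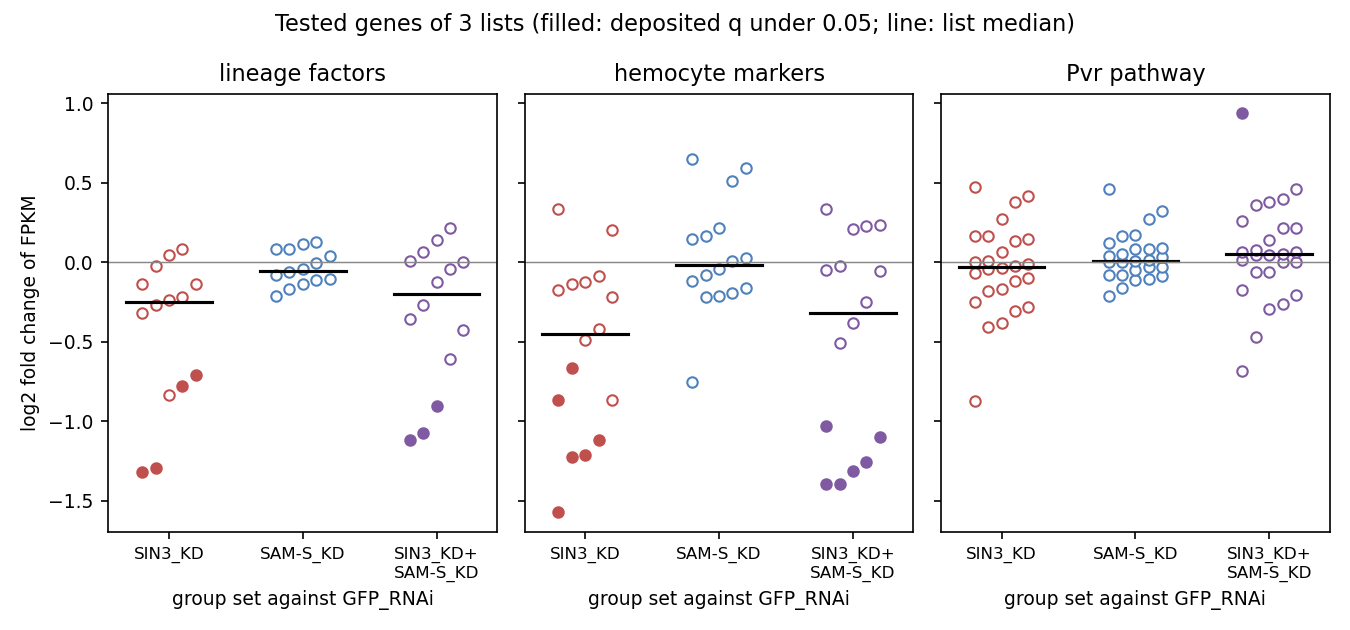
Log2 fold changes of FPKM against GFP_RNAi for the tested genes of the lineage factor (14), hemocyte marker (16) and Pvr pathway (26) lists; points are spread sideways for legibility, filled points have q under 0.05 and lines are medians. Filled points lie below 0 in the first and second lists in SIN3_KD and SIN3_KD+SAM-S_KD, and Pvf2 is the only filled point of the third.

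The list of 19 hemocyte markers, which includes He, Hml and Nplp2, had 16 tested genes. Of these, 6 fell and none rose in the samples labelled SIN3_KD, and 6 fell and none rose in those labelled SIN3_KD+SAM-S_KD. Without He, Hml and Nplp2, 3 of 13 fell in each. Like the other lists, this one was chosen with earlier results of these data known, so its counts are descriptions only. Over all tested genes, 4.35% were called lower and 3.34% higher in SIN3_KD, and 6.14% lower and 3.48% higher in SIN3_KD+SAM-S_KD. Pxn, which encodes the matrix enzyme peroxidasin, stood at 50.9 FPKM in SIN3_KD and 151 FPKM in GFP_RNAi (-1.57), and at 58.1 FPKM in SIN3_KD+SAM-S_KD and 153 FPKM in GFP_RNAi (-1.40). The scavenger receptor gene Sr-CI stood at 58.3 FPKM in SIN3_KD and 126 FPKM in GFP_RNAi (-1.12), and at 53.6 FPKM in SIN3_KD+SAM-S_KD and 128 FPKM in GFP_RNAi (-1.25). The collagen gene vkg fell in SIN3_KD, at 78.8 FPKM and 125 FPKM in GFP_RNAi (-0.67), and NimC1, a phagocytosis receptor gene, fell in SIN3_KD+SAM-S_KD, at 3.19 FPKM and 6.51 FPKM in GFP_RNAi (-1.03).

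The hemocyte markers had a median log2 fold change of -0.45 in SIN3_KD, -0.02 in SAM-S_KD and -0.32 in SIN3_KD+SAM-S_KD. The medians were -0.22, 0.02 and -0.06 without He, Hml and Nplp2. No marker was called in SAM-S_KD, where 0.163% of all tested genes were called. Cuffdiff gave 4 of the 16 an unadjusted p under 0.05 there, and 223 of all 7957 tested genes. They were Hml, below GFP_RNAi, and the matrix genes vkg (0.59), Cg25C (0.65) and Ppn (0.51), above it. The phagocytosis receptor genes eater and crq were not called in any table. The log2 fold change of eater was -0.42 in SIN3_KD (approximate 95% interval -0.77 to -0.07) and -0.38 in SIN3_KD+SAM-S_KD (-0.75 to -0.02), and that of crq was 0.34 (-0.18 to 0.86) and -0.03 (-0.61 to 0.56). Sums of markers of other cell types, which were not tested, stood as follows. The summed level of the 4 glial markers, of which moody and Gli reached 1 FPKM, was 67.2 FPKM in SIN3_KD and 52.5 FPKM in GFP_RNAi, and that of the 5 germline markers, of which piwi and aub did, was 62.6 FPKM in SIN3_KD and 85.2 FPKM in GFP_RNAi. In SIN3_KD+SAM-S_KD the sums were 52.6 FPKM for glia and 54.7 FPKM for germline, against 53.0 and 86.2 FPKM in GFP_RNAi. The muscle sum was 21.5 FPKM in SIN3_KD (GFP_RNAi 16.8) and 22.6 FPKM in SIN3_KD+SAM-S_KD (GFP_RNAi 17.0). The neuron sum was 5.17 FPKM (GFP_RNAi 3.63) and 4.56 FPKM (GFP_RNAi 3.67) in that order. The lamellocyte sum was 91.7 FPKM (GFP_RNAi 92.0) and 81.8 FPKM (GFP_RNAi 93.0). Their part in the results on He, Hml and Nplp2 was not tested.

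The difference between knockdowns was tested for each gene by an approximation, since pooled values allow no test over samples. Standard errors were taken from the deposited p, both tables were treated as independent although they share the GFP_RNAi control, and the result was adjusted over all genes tested in both. The log2 fold change in SIN3_KD minus that in SAM-S_KD was -1.03 for Nplp2 (approximate 95% interval -1.82 to -0.23), -0.70 for He (-1.28 to -0.13) and -0.46 for Hml (-1.42 to 0.50). For SIN3_KD+SAM-S_KD minus SAM-S_KD the differences were -1.11 for Nplp2 (-1.94 to -0.29), -0.94 for He (-1.60 to -0.28) and -0.65 for Hml (-1.63 to 0.33). The intervals of He and Nplp2 thus lay below 0 and those of Hml did not, but 0 of the 7 tested members passed the adjustment in either comparison, in which 1.04% and 0.0507% of all genes were called. Without the adjustment, 2 of the 7 passed in each, as did 778 of 7861 genes in the first and 549 of 7885 in the second. For He and Nplp2, p in SIN3_KD and in SIN3_KD+SAM-S_KD was the smallest that Cuffdiff gave. Their standard errors there are upper limits, so the lack of a call does not show like changes. In an alternative added after seeing the data, the summed variance was reduced as if all groups had equal variances and that of the shared control dropped out. He and Nplp2 then passed the adjustment in both comparisons, as did 732 of 7861 genes in the first and 420 of 7885 in the second.

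Between the samples labelled SIN3_KD+SAM-S_KD and those labelled SIN3_KD, 0 of the 7 members passed the adjustment, beside 0.0124% of all genes. Without it, 1 member passed, as did 133 of all 8040 genes. The member was Pvf2, whose log2 fold change was 0.77 higher in SIN3_KD+SAM-S_KD (approximate 95% interval 0.19 to 1.34). For Nplp2 the difference was -0.09 (-0.95 to 0.78), for He -0.24 (-0.91 to 0.44) and for Hml -0.18 (-1.21 to 0.84). Intervals of this width do not show that the 2 groups had like values.

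**Figure D4:**
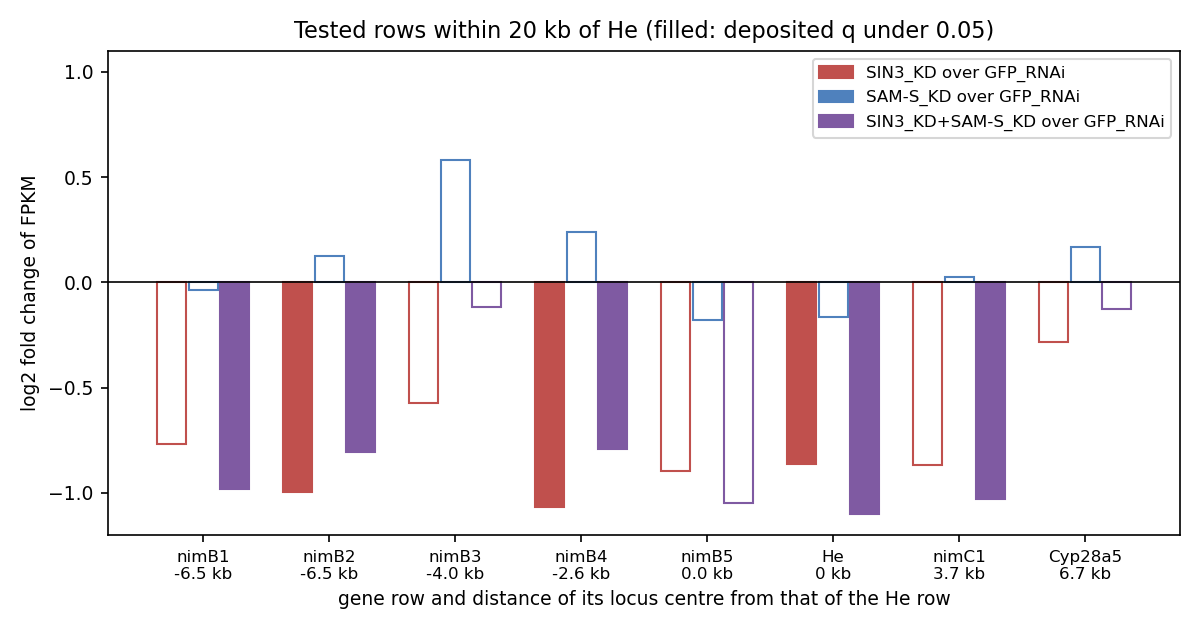
Log2 fold changes of FPKM against GFP_RNAi for He and the 7 tested rows within 20 kb of its locus, ordered by distance of locus centres; filled bars have q under 0.05. Rows sharing a locus have the same distance, and the bars of SIN3_KD and SIN3_KD+SAM-S_KD are below 0 in all rows.

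The surroundings of He hold a cluster of Nimrod genes, which encode secreted or membrane proteins of hemocytes. Within 20 kb of the He row, a window chosen after the values were seen, 7 other rows were tested. In SIN3_KD, nimB2 (20.1 FPKM, and 40.2 FPKM in GFP_RNAi) and nimB4 (11.6 FPKM and 24.3 FPKM, -1.07) fell. In SIN3_KD+SAM-S_KD, nimB1 (-0.98), nimB2 (-0.80), nimB4 (-0.79) and nimC1 (-1.03) fell. nimB5, at the same locus as He, stood at 46.0 FPKM in SIN3_KD and 85.5 FPKM in GFP_RNAi (-0.90) without a call, and none of the 7 was called in SAM-S_KD. The other 9 members had at most 1 row called higher and 1 called lower within 20 kb in any table. Their tested rows there ranged from 0 near Nplp2 and 1 near Hml and near Pvf3 to 14 or 15 near Pvr, so the counts cannot be set side by side. Over all tested genes, 4.35% were called lower in SIN3_KD and 6.14% in SIN3_KD+SAM-S_KD.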

How the data were processed

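Per the submitters' processing notes, bcl2fastq, Cuffdiff and build dm3 were used; neither the aligner nor the gene models, strand setting or versions are given in the sources used here. The deposited tables list, per the file headers, 1 FPKM for the control and 1 for the knockdown in each gene row, with the authors' test score (the Cuffdiff statistic), p-value and q-value. The tables hold 1 value for each group of 3 samples, so it cannot be told whether p measures the spread between samples. Depth is unknown: among 2783 low single-gene rows at most 8 shared 1 ratio to 0.001, so no read steps could be seen.

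Log2 fold changes are knockdown over GFP_RNAi without a pseudocount, within a table. Rows count as called where the authors ran the test and the deposited q is under 0.05. The standard error was the size of the log2 fold change over the normal quantile of the two-sided p. At the smallest p, 5e-05, this is an upper limit. Differences between tables used a z test with Benjamini-Hochberg adjustment; being a normal approximation, it is given by its intervals and calls alone (Python 3.11.15, pandas 2.3.3, scipy 1.17.1).

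Members and lists were chosen with earlier results of these data known. Named genes are the members, all called list genes up to 6 per list and table, Sin3A, Sam-S and, for Pvr, Nplp2, srp and ush, the 3 rows of nearest pattern; Src64B and the other list genes and neighbours were added after their values were seen. Symbols of the files were matched by name or through the synonyms of the RefSeq table (NimC1 is nimC1, PPO1 proPO-A1, PPO2 proPO45, PPO3 proPO59 and ItgaPS4 alphaPS4 in the files). Starts count from 1. Overlapping, antisense and merged genes cannot be told apart.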

Additional observations from a re-analysis of the deposited data

How the results depend on the processing

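The members called in each table and the list counts stayed within 1.5 times of the reported count under each alternative. These were q under 0.01, the adjustment recomputed, at least 1 FPKM in the higher condition, and single-symbol rows. The largest losses, in SIN3_KD, lay on that limit. Called members went from 3 to 2 with q under 0.01 and with the minimum of 1 FPKM, each time by loss of Hml. Called hemocyte markers went from 6 to 4 with q under 0.01. The minimum of 1 FPKM leaves out lz, gcm, Hml and Pvf3. The log2 fold changes kept their sign in 108 of 108 member values, after subtracting the table median, with 1 or 0.1 added to each FPKM and with the minimum. An added constant or a minimum cannot change a sign. The table medians, -0.014 to -0.018, were smaller in size than every negative member value of their table. Subtracting them therefore could not change a sign either, and the count is no evidence of stable directions. It also includes the untested rows of lz, gcm and Pvf3. With the variance of the shared control left out, 2 members were called in SIN3_KD+SAM-S_KD minus SAM-S_KD and 2 in SIN3_KD minus SAM-S_KD. As reported, there were 0 in each. Leaving it out assumes equal group variances and gives a smaller variance by construction. With standard errors from the deposited statistic, added after seeing the data, all 3 differences gave 0 called members. No paired analysis was possible because the tables hold 1 pooled value per group, and for the same reason no sample could be left out. The depth is unknown, so no counting error can be given for lz, gcm, Pvf3 or Hml, whose levels were below 1 FPKM. For He, Nplp2 and Pvf2, whose calls have the smallest p that Cuffdiff gave, the width of the interval is an upper limit.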

Other observations

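The genes whose 3 log2 fold changes lay nearest to those of a member were taken among rows of 1 gene tested in every table with at least 5 FPKM in every group, 6007 rows for Pvr and Nplp2 and 6008 for srp and ush. Nearest to Pvr were Upf3, at a Euclidean distance of 0.0206, CG15618 and Rrp6. Nearest to Nplp2 were CG5888, at 0.0922, LM408 and Traf-like, with log2 fold changes of -1.26, -1.23 and -1.31 in SIN3_KD. Nearest to srp were lwr, fl(2)d and LanB1, and nearest to ush Fmr1, Ocrl and Nf-YB. These are descriptions over 3 comparisons that share the GFP_RNAi control.

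Near Pvr, the merged row of CG8353 and CG8360 stood at 68.3 FPKM in SIN3_KD and 38.0 FPKM in GFP_RNAi (0.85) and at 86.0 FPKM in SIN3_KD+SAM-S_KD and 38.4 FPKM in GFP_RNAi (1.16), and was called higher in both. CG8292, also within 20 kb of Pvr, was called lower in both, at 110 FPKM in SIN3_KD and 209 FPKM in GFP_RNAi (-0.93) and at 109 FPKM in SIN3_KD+SAM-S_KD and 211 FPKM in GFP_RNAi (-0.96). Within 20 kb of srp, the non-coding gene CR42839 was lower in SIN3_KD+SAM-S_KD, at 1.88 FPKM and 3.70 FPKM in GFP_RNAi (-0.98), with q = 0.047 in the authors' deposited table. Near ush, nAcRbeta-21C was called lower in SIN3_KD (4.76 FPKM, and 17.8 FPKM in GFP_RNAi) and in SIN3_KD+SAM-S_KD (7.14 FPKM, and 18.0 FPKM in GFP_RNAi). These neighbours were picked after their values were seen.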
